A study of Mus musculus with 18 samples.

Results

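The genes described here encode proteins stored in the granules of neutrophils. They were taken by symbol from the deposited table: 4 genes of primary granules (Mpo, Elane, Prtn3 and Ctsg) and 6 of secondary granules (Ltf, Lcn2, Camp, Ngp, Fcnb and Chil3). All 10 symbols were found among 19326 rows, each once, and all 10 were among the 12969 genes tested. The data are RNA sequencing of whole spleen from ICR mice, an outbred stock, aged 10 weeks, with 18 libraries in 6 groups of 3. Per the labels, the groups were control, AOS at 10 mg/kg, a high fat diet (HFD), HFD with AOS at 10 mg/kg (HFD+AOS), HFD with FMT named for AOS at 10 mg/kg (HFD+AOS-FMT), and HFD with FMT named for control (HFD+control-FMT). AOS and FMT are kept as the labels write them. The series design names the question as the effect of FMT on a spleen affected by a high fat diet. No label states whether the 3 libraries within each group are separate animals, so the p-values measure the spread between these libraries, which may be technical. Both FMT groups also received the high fat diet, so against control the FMT and the diet cannot be told apart.

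Neutrophils make their granules in sequence as they mature. Primary (azurophil) granules form in promyelocytes, and secondary (specific) granules form later, in myelocytes and metamyelocytes. Transcription of the granule genes is mostly shut off before the cell is mature, so their RNA marks developing more than circulating neutrophils. The mouse spleen, unlike the adult human spleen, keeps a reserve of blood cell formation in its red pulp, including granulocyte formation. In bulk tissue, more cells of a type and more RNA per cell cannot be told apart.

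Values are FPKM, which scale reads by transcript length and by library size, a unit read from the values themselves. The labelled tissue carried its usual markers: the B cell gene Cd79a read at least 507.55 FPKM and the T cell gene Cd3g at least 48.67 FPKM in every library. Libraries 1 and 2 of the control group stood apart from the other 16 in the granule genes, and every comparison with control below rests on them. Haemoglobin genes took 34.4%, 27.1% and 21.5% of the FPKM total in controls 1, 2 and 3, and 10.8% to 28.1% in the rest. With haemoglobin rows left out and the rest rescaled, the 10 genes had a median log2 difference of -1.98 for HFD against control. It was -1.94 with those rows kept. Any other part of haemoglobin genes in the granule gene values was not tested.

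RefSeq promoters (GRCm38.p6) were matched for 10 of the 10 genes and searched for short motifs of factors known to drive granulocyte genes, because the genes moved together across libraries. The letters GAGGAAGT, a PU.1 motif, were found in the 250 bases before the start of 3 genes, all primary: Mpo, Elane and Prtn3. The same letters were in 2.4% of 32851 promoters of that length. The letters TTGCNNAA, a C/EBP motif, were found in 4 genes, all secondary: Ltf, Lcn2, Ngp and Fcnb, against 9.6% of promoters. Both strands were searched, and the motifs were chosen with the genes known. Stretches from 185 to 66 bases before the start are shown for 5 genes with such a match, on the strand of the gene, with the match in capitals. The Elane and Prtn3 stretches show the PU.1 letters and the other 3 show the C/EBP letters or their complement.
Elane, chr10:79886127-79886246, plus strand: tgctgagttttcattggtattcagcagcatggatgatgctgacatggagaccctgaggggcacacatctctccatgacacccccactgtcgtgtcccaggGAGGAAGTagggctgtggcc
Prtn3, chr10:79879482-79879601, plus strand: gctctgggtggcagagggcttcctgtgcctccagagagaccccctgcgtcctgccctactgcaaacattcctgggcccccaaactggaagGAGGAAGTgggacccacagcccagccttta
Ltf, chr9:111019107-111019226, plus strand: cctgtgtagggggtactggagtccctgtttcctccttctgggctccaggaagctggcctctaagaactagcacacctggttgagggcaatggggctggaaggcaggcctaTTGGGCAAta
Ngp, chr9:110419623-110419742, plus strand: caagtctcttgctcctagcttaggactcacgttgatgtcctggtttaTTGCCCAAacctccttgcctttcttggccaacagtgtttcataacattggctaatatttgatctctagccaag
Fcnb, chr2:28084944-28085063, minus strand: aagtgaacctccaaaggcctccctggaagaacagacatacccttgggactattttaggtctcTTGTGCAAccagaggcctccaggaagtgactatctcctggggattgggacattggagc

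Positions are counted from the RefSeq start, and GENCODE vM21 places the first base of 8 of the 10 genes farther upstream, by 7 bases (Fcnb) to 513 bases (Lcn2) for 7 of them and by 5191 bases for Prtn3. By GENCODE, the Prtn3 stretch above therefore lies inside the gene, as do the Lcn2 match, the nearer Ngp match and much of the Camp window. The PU.1 letters of Elane lay 85 to 78 bases before the start and those of Prtn3 95 to 88 bases before it, in neighbouring genes on chromosome 10. In Mpo the same letters lay farther out, at 224 to 217 bases. Ngp also had C/EBP letters 11 to 4 bases before its start and Fcnb at 235 to 228 bases, while the single match of Lcn2 lay at 216 to 209 bases. Looser motifs were common everywhere. TTNNGNAA was in 5 of the 10 promoters and 36.8% of all, GAGGAA in 6 and 23.3%, AACNG (Myb) in 10 and 74.2%, and AATC (Gfi1) in 6 and 69% of all. TGTGGT (Runx) and TATAAA were each found in Ctsg alone, against 14% and 12.4% of all promoters. GAGGAA is part of GAGGAAGT, and TTGCNNAA and TTNNGNAA can fall on the same bases. A match describes letters and no site, and a gene without one is not thereby shown to lack the factor.

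Primary granule genes were high in controls 1 and 2 and low elsewhere. Mpo encodes myeloperoxidase, which makes hypochlorous acid from hydrogen peroxide. It read 198, 62.3 and 10.6 FPKM in controls 1, 2 and 3. It read 10.8, 20.0 and 13.1 with AOS, and 21.1, 16.2 and 6.89 with HFD. The 2 high libraries lay above all the others, and control 3 lay inside the range of HFD and just below that of AOS. In HFD+AOS, Mpo read 19.7, 10.6 and 5.72 FPKM. In HFD+AOS-FMT it read 13.5, 10.7 and 10.6, and in HFD+control-FMT 14.2, 12.4 and 17.5. These 9 values lay on both sides of control 3 and the groups overlapped each other, but the HFD+control-FMT values all lay above control 3.

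Elane encodes neutrophil elastase, a serine protease. Its control values were 304, 91.1 and 15.5 FPKM. With AOS it read 13.7, 31.6 and 18.2 FPKM, and with HFD 26.5, 18.7 and 10.8. Again control 3 lay among the treated libraries. In HFD+AOS Elane read 28.2, 15.2 and 6.69 FPKM, in HFD+AOS-FMT 24.4, 15.8 and 17.3, and in HFD+control-FMT 17.98, 21.7 and 26.0. Prtn3 encodes proteinase 3, a close relative of elastase encoded next to it. It read 239, 66.4 and 8.75 FPKM in the controls, and from 4.85 to 18.2 with a median of 14.0 in the other 15 libraries. Ctsg encodes cathepsin G, the least abundant of the 4 in every library. It read 84.2, 23.0 and 3.42 FPKM in the controls and from 1.28 to 7.93, median 4.88, in the other 15.

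Secondary granule genes had the same shape, and 4 of the 6 were above every primary gene in all 18 libraries. Ngp, neutrophilic granule protein, belongs to the cystatin-like family and was the most abundant of the 10 in all 18 libraries. Its control values were 2275, 679 and 128 FPKM. With AOS it read 95.9, 244 and 128 FPKM, and with HFD 209, 164 and 88.2. AOS 2 was the highest library outside controls 1 and 2, and controls 1 and 2 were the only libraries above it. In HFD+AOS Ngp read 183, 89.98 and 60.05 FPKM, in HFD+AOS-FMT 171, 105 and 128, and in HFD+control-FMT 135, 153 and 170. Camp encodes the precursor of the antimicrobial peptide CRAMP. It read 1412, 385 and 67.0 FPKM in the controls and from 31.6 to 139, median 74.8, in the other 15.

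Lcn2 encodes lipocalin 2, which binds bacterial siderophores and so withholds iron. Other cells also make it under inflammatory signals. Its control values were 952, 259 and 42.1 FPKM. With AOS it read 30.3, 82.3 and 45.9 FPKM, with HFD 65.2, 53.9 and 30.8, and with HFD+AOS 53.8, 29.5 and 16.65. In HFD+AOS-FMT it read 55.8, 38.7 and 41.6 FPKM and in HFD+control-FMT 45.8, 50.5 and 54.4. The highest treated library was again AOS 2. Ltf encodes lactoferrin, an iron-binding protein. It read 397, 116 and 20.1 FPKM in the controls and from 8.13 to 36.6, median 19.1, elsewhere.

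Fcnb encodes ficolin B, a pattern recognition lectin of the complement system, and was the lowest of the secondary genes. It read 47.9, 16.6 and 2.56 FPKM in the controls and from 1.35 to 6.34, median 3.58, in the other 15. Chil3 encodes a chitinase-like protein (Ym1) that alternatively activated macrophages also make. It read 491, 142 and 27.8 FPKM in the controls and from 14.98 to 47.3, median 34.2, elsewhere. Chil3 has near-identical copies in the mouse genome, so the share of its reads that the authors' counting gave to each copy is uncertain. The copy Chil4 was listed at 0.19 FPKM or less in every library.

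**Figure D1:**
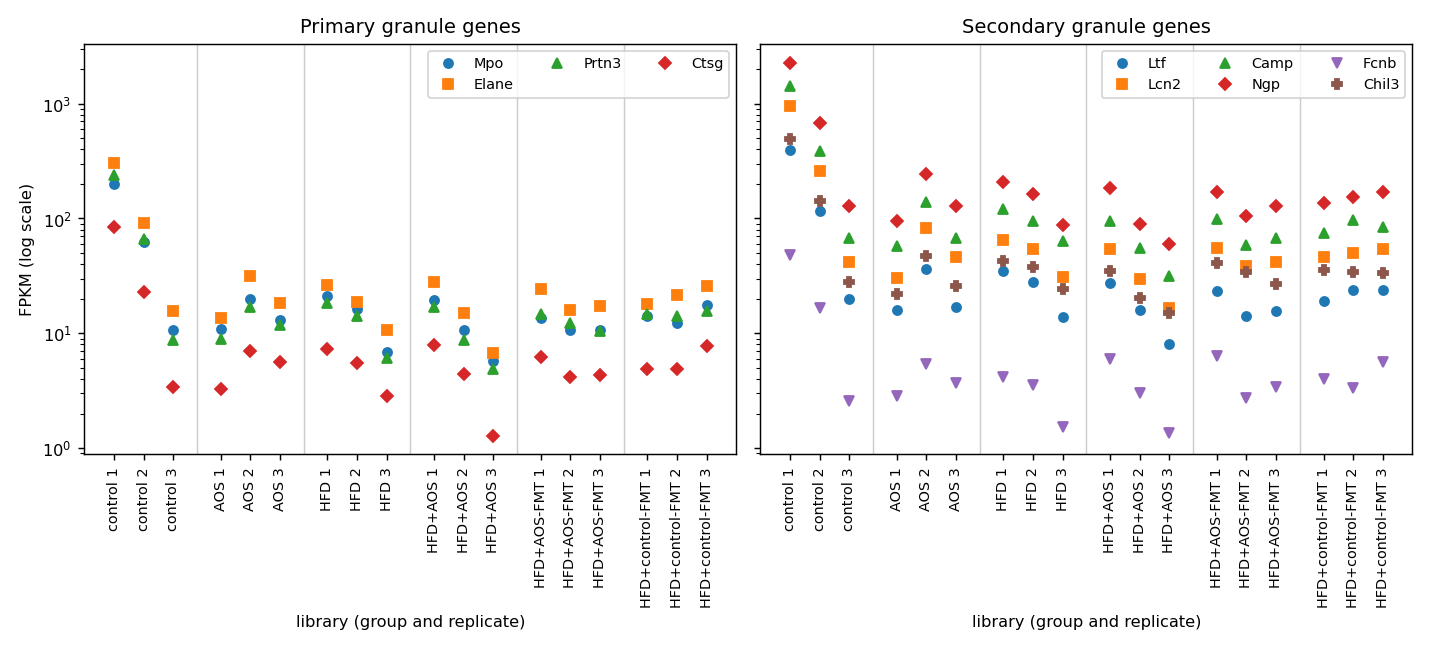
FPKM (log scale) of the 4 primary granule genes (left) and 6 secondary granule genes (right) in each of 18 libraries, 1 point per gene and library, with vertical lines between groups. Controls 1 and 2 lie above all other libraries for every gene, and control 3 lies among the treated ones.

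For all 10 genes, controls 1 and 2 were above each of the other 16 libraries, and control 3 was not. Control 1 was 17.7 to 27.3 times control 3, and control 2 was 5.12 to 7.59 times control 3. Control 2 was still 2.62 to 3.64 times the highest of the other 16 libraries. The lowest library was HFD+AOS 3 for all 10 genes. The highest of the 16 was AOS 2 for 6 genes, HFD 1 for Mpo and Prtn3, HFD+AOS 1 for Ctsg and HFD+AOS-FMT 1 for Fcnb. Control 3 was above 2 to 8 of the 15 treated libraries, depending on the gene. Together the 10 genes took 0.770% of the FPKM total in control 1, 0.246% in control 2 and 0.0484% in control 3, against 0.0241% to 0.0848% in the treated libraries.

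The spread within groups differed. The coefficient of variation (SD over mean, n = 3) was 104% to 114% in controls for the 10 genes, the lowest for Fcnb and the highest for Prtn3. It was 43.8% to 73.4% in HFD+AOS and 2.70% to 28.1% in HFD+control-FMT. Mpo averaged 90.3 ± 96.8 FPKM (SD, n = 3) in controls and 14.7 ± 7.20 with HFD. Ngp averaged 1027 ± 1115 FPKM (SD, n = 3) in controls, 154 ± 60.9 with HFD and 153 ± 17.6 in HFD+control-FMT. The control SD exceeded the control mean for both.

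The order of the 10 genes by FPKM, a scale per transcript length, hardly changed between libraries. Ngp, Camp, Lcn2 and Chil3 were first to the fourth in all 18. Ltf was above Elane in 12 of 18 libraries, with a ratio from 0.885 to 1.49. Prtn3 was above Mpo in 6 of 18, controls 1 and 2 among them, with a ratio from 0.822 to 1.21. Ctsg was above Fcnb in 16 of 18. These 3 neighbouring pairs were the ones whose order was not fixed.

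Primary and secondary genes kept a near constant ratio while their levels changed. A single level per library and a single level per gene accounted for 98.1% of the variation within genes over the 18 libraries. This was on the log2(FPKM) scale, without a pseudocount. Without controls 1 and 2 the figure was 90.4% over 16 libraries. What remained had an SD of 0.18 on the log2 scale, or 1.13-fold. The largest deviation was that of Ctsg in HFD+AOS 3, where Ctsg read 1.28 FPKM. On the log2(FPKM + 1) scale, the mean of the primary genes minus the mean of the secondary genes ran from -1.74 in HFD 3 to -1.30 in HFD+AOS 1. It averaged -1.61 ± 0.064 (SD, n = 3) in controls, -1.49 ± 0.17 with AOS, -1.60 ± 0.13 with HFD and -1.39 ± 0.15 in HFD+AOS. It was -1.51 ± 0.12 in HFD+AOS-FMT and -1.44 ± 0.12 in HFD+control-FMT. The control range (-1.68 to -1.56) overlapped those of AOS, HFD and HFD+AOS-FMT. It ended just below those of HFD+AOS and HFD+control-FMT, both of which began at -1.56, and without a pseudocount it overlapped them too. Controls 1 and 2 (-1.56 and -1.57) had more of both granule sets, at a ratio inside the range of the other 16 libraries.

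**Figure D2:**
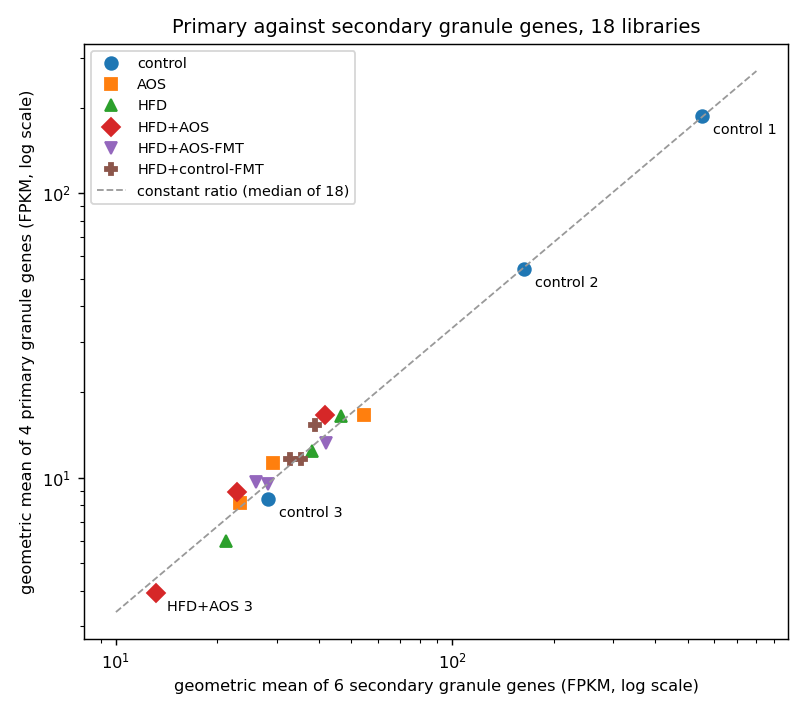
Geometric mean FPKM of the 4 primary granule genes against that of the 6 secondary granule genes, both on log scales, 1 point per library, with a dashed line for the median ratio of the 18 libraries. Control 1 (187 and 553 FPKM) and control 2 (54.3 and 163 FPKM) lie far up the same line as the other 16.

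Pearson correlations of log2 values between pairs of these genes over the 18 libraries were 0.988 to 0.994 within the primary set, 0.959 to 0.997 within the secondary set and 0.969 to 0.992 between them. The points share libraries and are stretched by controls 1 and 2. Over the 15 treated libraries with group means removed, the correlations were 0.937 to 0.986, 0.860 to 0.988 and 0.849 to 0.980. The covariation thus held also among libraries of the same group.

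Of 12543 candidate genes, the 5 most like the primary mean over 18 libraries were Cd177 (Pearson r 0.990), S100a8 (0.983), Ms4a3 (0.980), S100a9 (0.978) and Retnlg (0.970). The 5 most like the secondary mean were S100a8 (0.996), S100a9 (0.993), Cd177 (0.985), Retnlg (0.983) and Ly6g (0.979). Cd177 and Ly6g encode neutrophil surface proteins, S100a8 and S100a9 the subunits of calprotectin, and Ms4a3 a protein of granulocyte and monocyte progenitors. S100a8 read 5154, 1315 and 276 FPKM in controls 1, 2 and 3 and from 114 to 455 elsewhere. Ms4a3 read 60.2, 16.1 and 2.33 FPKM and from 1.65 to 5.32 elsewhere. Without controls 1 and 2, r with the primary mean was 0.937 for Cd177 and 0.875 for Ms4a3, and r with the secondary mean was 0.971 for S100a8.

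The effect of the diet was asked by HFD against control. On the log2(FPKM + 1) scale, which understates the change of low genes, all 10 genes were lower with HFD, by -2.18 (Lcn2) to -1.81 (Ctsg), with standard errors of 0.70 to 0.84, while 31.5% of all genes tested were lower. None passed the test: 0 of 10 had an adjusted p under 0.05 (limma, Benjamini-Hochberg over 12969 genes), against 2.75% of all genes tested. The adjusted p ran from 0.111 (Fcnb) to 0.155 (Ctsg). The fit pools the spread over the 6 groups, and the controls varied most. Standard errors, intervals and unadjusted p-values against control therefore understate the control spread. With only HFD and control in the fit, where fewer libraries set the spread, the limma adjusted p was 0.405 to 0.450. All 10 had an unadjusted p under 0.05 and a lower value, against 9.08% of all genes. The median difference of the 10 was -1.94, against 0.10 over all genes. HFD and control overlapped for all 10 genes, against 5.44% of genes that were lower in every HFD library than in every control.

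Single control libraries set these values. Without control 3, all 10 genes were called lower with HFD, at -3.35 to -2.90 (limma adjusted p 0.00486 to 0.00713), but 29.3% of all genes were then called too. Without control 1 the differences shrank to between -1.12 and -0.80, and none was called. Without control 2 they were -2.06 to -1.71, and none was called. Without both controls 1 and 2, a setting added after the values were seen, all 10 genes were higher with HFD than in the remaining control, by 0.14 to 0.43, and none was called. The direction of the diet difference for these genes is therefore that of controls 1 and 2.

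AOS alone against control gave a difference of the same size. All 10 genes were lower, by -2.15 (Lcn2) to -1.58 (Fcnb), while 37.6% of all genes were lower. Of the 10, 0 were called (limma adjusted p 0.219 to 0.310), with 0% of all genes called. All 10 had an unadjusted p under 0.05 and a lower value, against 5.23% of genes. Elane differed by -1.88 (95% interval -3.62 to -0.14) and Ltf by -2.14 (-3.87 to -0.42). These intervals rest on the pooled spread, which is below that of the controls. With only AOS and control in the fit, the limma adjusted p was 0.599 to 0.653. Without control 3, 10 of 10 were called at -3.33 to -2.60, with 2.33% of all genes called. Without control 1 the differences were -1.14 to -0.70, and without controls 1 and 2 they were 0.09 to 0.47, the opposite sign, with none called in either.

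HFD+AOS against control held the lowest values. All 10 genes were lower, by -2.83 (Lcn2, 95% interval -4.62 to -1.05) to -1.85 (Fcnb), while 39.8% of all genes were lower. Of the 10, 0 were called, against 2.09% of all genes. The limma adjusted p ran from 0.0907 (Lcn2) to 0.172 (Fcnb), and all 10 had an unadjusted p under 0.05, against 5.89% of genes lower at that p. Without control 3, 10 of 10 were called at -4.01 to -2.86, with 10.2% of all genes called. Without control 1 they were -1.78 to -0.97 and none was called. Without controls 1 and 2, 6 of the 10 were lower and 4 higher, between -0.48 and 0.18, and none was called.

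Against control, HFD+AOS-FMT differed by -2.45 (Ltf) to -1.56 (Fcnb), while 43.6% of all genes were lower, with 0 of 10 called (limma adjusted p 0.308 to 0.419) and 0% of all genes called. All 10 had an unadjusted p under 0.05, against 5.07% of genes lower at that p. HFD+control-FMT differed by -2.11 (Lcn2) to -1.48 (Fcnb), while 34.2% of all genes were lower, with 0 of 10 called (limma adjusted p 0.119 to 0.204), against 5.13% of all genes. Here 7 of 10 had an unadjusted p under 0.05, against 9.41% of genes lower at that p. Without control 3, 10 of 10 were called in both, with 4.62% and 23.8% of all genes called. Without control 1 the differences were -1.45 to -0.68 for HFD+AOS-FMT and -1.11 to -0.60 for HFD+control-FMT, with none called. Without controls 1 and 2 they were -0.21 to 0.47, with 9 of 10 genes higher, and 0.13 to 0.69, with all 10 higher. These 5 comparisons share the control libraries and are not separate evidence of a lower level. Nor are the 10 genes, which moved together across libraries, so counts of 10 set beside shares of all genes are no enrichment.

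**Figure D3:**
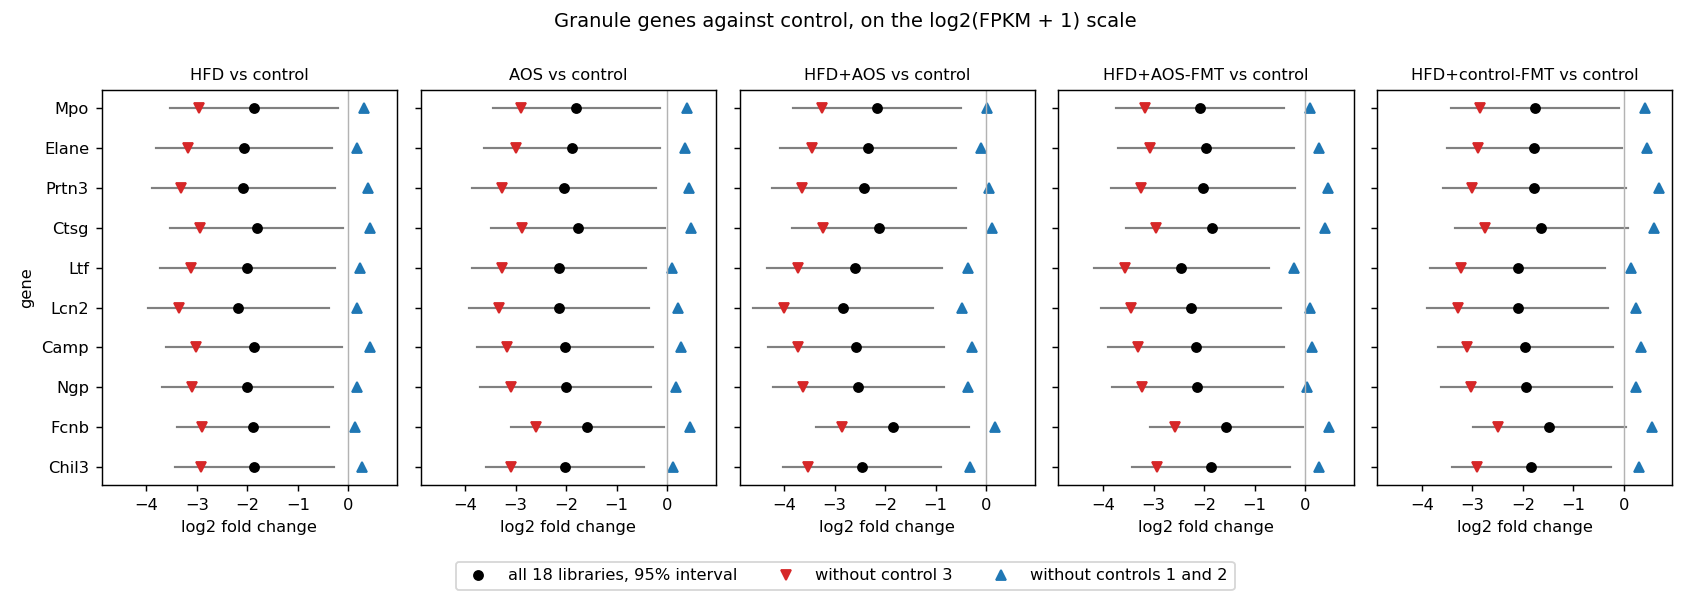
Difference from control on the log2(FPKM + 1) scale for each of the 10 genes in 5 comparisons, with 95% intervals from the fit of 18 libraries (black) and the values without control 3 (red) and without controls 1 and 2 (blue). Black points lie between -2.83 and -1.48, red points are lower still, and most blue points lie at or above 0. The intervals use a spread pooled over the 6 groups, which is below that of the controls.

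Comparisons whose differences do not use the controls gave small differences. Their standard errors, 0.70 to 0.84, do carry the control spread, because the fit pools all 6 groups. With only the compared groups in the fit, 0 of the 10 genes were called in each of these comparisons. In HFD+AOS against HFD, 9 of 10 genes were lower, by -0.71 (Camp, 95% interval -2.45 to 1.03) to -0.27 (Elane), and Fcnb differed by 0.04, while 58.1% of all genes were lower. None of the 10 was called (limma adjusted p 0.690 to 0.983), none had an unadjusted p under 0.05, and 0% of all genes were called. The labels give no pairing of libraries across groups. Same-numbered libraries were paired in this comparison because their residuals correlated, weakly, at 0.236, 0.268 and 0.191. The pairing was thus read from these same data. Within pairs, 7 of 10 genes (all but Elane, Ctsg and Fcnb) were lower in HFD+AOS in 3 of 3, against 27.4% of all genes. For all 10 genes both groups fell from library 1 to library 3, so the pairing set high against high. The genes also moved together, so no conclusion is drawn from this count. With the replicate block the standard errors were 0.63 to 0.76 and the limma adjusted p 0.609 to 0.979, so again none was called. Secondary genes had a median difference of -0.60 and primary genes of -0.30, and the difference between the sets was not tested. HFD+AOS 3, the lowest library of all, weighs on these values: without it 4 of the 10 genes changed direction.

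The question of the series, whether the FMT changes the spleen of HFD mice, was asked by each FMT group against HFD and by the FMT groups against each other. HFD+AOS-FMT against HFD ranged from -0.45 (Ltf, 95% interval -2.18 to 1.28) to 0.33 (Fcnb), with 7 genes lower and 3 higher, of which 2 changed direction under median-ratio scaling and 2 under quantile normalization. No gene was called (limma adjusted p 0.827 to 0.998), none had an unadjusted p under 0.05, and 0% of all genes were called. HFD+control-FMT against HFD ranged from -0.11 (Ltf) to 0.41 (Fcnb, 95% interval -1.10 to 1.92), with 0 of 10 called and none at an unadjusted p under 0.05, against 0.0154% of all genes called. In HFD+AOS-FMT against HFD+control-FMT, all 10 genes were lower, by -0.34 (Ltf) to -0.03 (Chil3), against 65.2% of all genes lower, and 1 of the 10 was higher under median-ratio scaling. None was called (limma adjusted p 0.919 to 0.994) or had an unadjusted p under 0.05, and 0.00771% of all genes were called. Over the 10 genes the 95% intervals reached from -2.18 to 1.88, from -1.83 to 2.12 and from -2.07 to 1.63 in these 3 comparisons. These are the outermost ends over the 10 genes, and no limit of detection was worked out. The intervals also carry the spread of the controls, through the pooled fit.

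Whether AOS acts differently on the 2 diets was asked by an interaction term, the AOS difference under HFD minus the AOS difference without it. It was positive for all 10 genes, from 1.31 (Camp) to 1.70 (Prtn3), against 34.8% of all genes. None was called (limma adjusted p 0.418 to 0.559), none had an unadjusted p under 0.05, and 0% of all genes were called. Without control 1 the median of the 10 was 0.52, and without controls 1 and 2 all 10 turned negative, with a median of -0.71. An F test over the 6 groups called 0 of 10 (limma adjusted p 0.243 to 0.368, unadjusted p 0.0611 to 0.170, none under 0.05), against 0.116% of all genes. Without control 3 it called all 10, with 8.13% of all genes.

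Genes of other granule proteins and of neutrophil development were read for the same libraries, from lists chosen with earlier results of these data known. Some had the shape of the 10 genes and some were level. Of 15 other specific and gelatinase granule genes, all tested, the median ratio of control 1 to the median of the 16 libraries outside controls 1 and 2 was 9.87. Mmp9 (gelatinase B) read 41.2, 13.4 and 5.38 FPKM in the controls and 2.51 to 6.34 elsewhere, and Trem3, a myeloid receptor, 21.5, 5.83 and 2.61 against 1.25 to 3.27. The following were picked after their values were seen. Mmp8 (neutrophil collagenase) read 51.1, 14.7 and 2.82 FPKM, against 1.84 to 6.96 elsewhere. Lyz2 (lysozyme) and Cyba, a subunit of the phagocyte oxidase, are also expressed by macrophages and had ratios of 1.21 and 0.993.

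Among 7 genes for azurophil granule assembly and content, 6 were tested, and their median ratio was 1.10. Prss57, a granule serine protease, read 4.59, 1.19 and 0.34 FPKM in the controls and 0.27 to 0.76 elsewhere, a ratio of 9.98. Gusb, a lysosomal enzyme of most cells, read 27.8, 30.2 and 27.4 FPKM against 27.1 to 38.0. Ctsc, chosen after its value was seen, encodes the protease that activates the granule serine proteases and is made by many cells. Its ratio was 0.756.

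Genes of the progenitor list were divided. The median ratio of its 11 genes was 1.38. Flt3, a receptor of early progenitors named by rule, had a ratio of 0.681. Chosen after the values were seen, Kit and Cd34, genes of stem and progenitor cells, had ratios of 1.02 and 0.791, while Cebpe, a factor of the promyelocyte to myelocyte stages, read 14.9, 4.47 and 0.69 FPKM against 0.53 to 1.60. Among 12 regulators of granulocyte formation, 10 were tested, with a median ratio of 1.21. Cebpa, which starts the granulocyte programme, read 7.34, 8.27 and 6.42 FPKM against 6.91 to 12.1. Klf5 read 1.70, 0.98 and 1.25 FPKM against 0.26 to 1.21. Also chosen after the fact, Spi1, which encodes PU.1, had a ratio of 1.26, and Csf3, the granulocyte growth factor, was listed at 0 in the 3 controls and at 0.11 FPKM or less elsewhere.

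**Figure D4:**
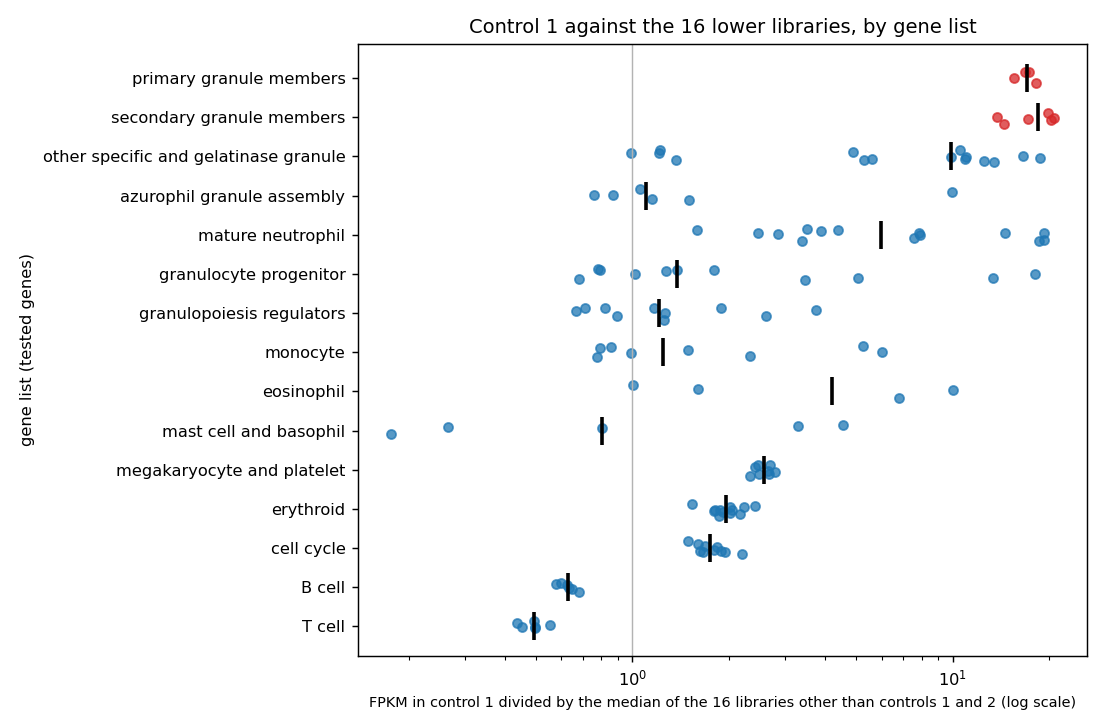
FPKM in control 1 divided by the median of the 16 libraries outside controls 1 and 2 (log scale) for each tested gene of 15 lists, 1 point per gene, with black bars for list medians and the 10 granule genes in red. The granule genes lie at 13.7 to 20.8, neutrophil lists spread from 0.669 to 19.3, and B and T cell genes lie between 0.435 and 0.683.

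Most genes of later neutrophils were also highest in control 1, and for most of them, as for the 10, control 3 lay inside the treated range. Stfa2l1, a stefin, read 21.0, 9.58 and 4.78 FPKM in the controls and 1.07 to 5.70 elsewhere. Clec4d, a C-type lectin receptor, read 5.37, 2.85 and 2.42 FPKM against 1.10 to 2.29. Control 3 was above all treated libraries for Clec4d, as it was for the chemokine receptor gene Cxcr2 (19.4, 8.65 and 7.01 against 2.76 to 6.68) and for Csf3r (44.2, 20.0 and 16.5 against 6.87 to 16.2), both chosen after their values were seen. Of 14 tested genes of the mature neutrophil list, 1 was called lower with HFD, 2 in HFD+AOS and 3 in HFD+control-FMT, each against control. Of all genes tested, 1.3%, 0.285% and 1.94% were called lower there. Limma called 0 in the AOS and HFD+AOS-FMT comparisons, where 9 and 11 of the 14 had an unadjusted p under 0.05, against 5.23% and 5.07% of all genes lower at that p.

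Stfa2l1 was lower in HFD by -1.69 (limma adjusted p 0.0452), in HFD+AOS by -1.87 (0.0264) and in HFD+control-FMT by -1.62 (0.0354). Clec4d was lower in HFD+AOS by -0.84 (0.0407) and in HFD+control-FMT by -0.91 (0.0272). In HFD+control-FMT, Cxcr2 (-1.21, adjusted p 0.0331), Csf3r (-1.32, 0.0308), Mmp9 (-1.77, 0.0439) and Klf5 (-0.62, 0.0355) were also lower and Cebpa (0.57, 0.0272) was higher. Klf5 was lower with HFD by -0.67 (0.0450). Alternatives for these genes were added after their values were seen. Of the 11 calls, 0 remained without control 1, 5 without control 2, 2 without HFD+control-FMT 1 and 1 without HFD+control-FMT 2. None remained with only the compared groups in the fit or with a variance for each group, and 6 remained with median-ratio scaling.

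Lists of other cell types also stood apart in control 1, by less, and no test was made of this. The ratios that follow are those of control 1. Megakaryocyte and platelet genes had ratios of 2.33 to 2.79 for 8 genes, erythroid genes 1.54 to 2.42 for 12 genes and cell cycle genes 1.49 to 2.20 for 10 genes. B cell genes had ratios of 0.578 to 0.683 and T cell genes of 0.435 to 0.554, 6 genes each. Their summed levels in controls 1, 2 and 3 were 1402, 1939 and 2416 FPKM for the B cell list, with 1836 to 2833 elsewhere. For the T cell list they were 166, 283 and 281 FPKM, with 284 to 432 elsewhere. The erythroid sums were 2917, 2111 and 1810 FPKM, with 755 to 1910 elsewhere, and the megakaryocyte sums 2053, 1080 and 815 FPKM, with 626 to 1107 elsewhere. Control 2 thus lay inside the treated range for the megakaryocyte, cell cycle and B cell lists, above it for the erythroid list and just below it for the T cell list. The part of these cell types in the granule gene values was not tested.

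Of monocyte genes, 8 of 8 were tested and the median ratio was 1.24. Cx3cr1 and Ms4a6c, named by rule, had ratios of 0.854 and 0.775. The list was divided: chosen after their values were seen, F13a1 read 27.4, 10.3 and 5.08 FPKM in the controls against 4.14 to 5.99 elsewhere, and Vcan 2.08, 1.03 and 0.34 against 0.17 to 0.56. The summed level of the alternatively activated macrophage list was 17.3, 33.6 and 31.6 FPKM in controls 1, 2 and 3 and 19.8 to 44.4 elsewhere. Its part in the Chil3 values was not tested. A list of inflammatory genes drawn up for Lcn2 (Il1b, Il6, Tnf, Il17a, Nfkbiz, Saa3, Stat3 and Socs3) summed to 85.6, 79.8 and 93.7 FPKM in the controls and 84.8 to 118 elsewhere. Not all of these encode signals, and Stat3 alone read 32.5, 34.1 and 41.2 FPKM in the controls. Tnf, a cytokine of that list, read 5.63, 5.84 and 5.26 FPKM against 5.40 to 10.8. Il1b, chosen after its values were seen, went the other way. It read 25.3, 17.8 and 24.2 FPKM against 9.51 to 32.4, a control 1 ratio of 1.68. The ratios of Il6, Tnf, Nfkbiz, Saa3, Stat3 and Socs3 were 0.689 to 0.932. The part of these genes in the Lcn2 values was not tested.

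By GENCODE vM21 (GRCm38), Prtn3 (79874476 to 79883174) and Elane (79886247 to 79888215) lie side by side on chromosome 10, within 13.7 kb. Of the 5 expressed neighbours shown here, ratios of control 1 to the 16 libraries were 0.186 to 1.85. Palm had the highest, at 8.25, 6.40 and 3.88 FPKM in the controls and 3.51 to 6.01 elsewhere, so controls 1 and 2 were above all others. R3hdm4 read 68.0, 53.0 and 47.4 FPKM against 46.1 to 60.0, and Med16 11.1, 10.4 and 10.1 against 9.41 to 13.4. Ptbp1, a tested gene before them, read 149, 148 and 152 FPKM in the controls and 140 to 165 elsewhere. Cfd, the gene after them, encodes complement factor D, a protease made mostly by fat cells, and read 7.50, 61.3 and 35.4 FPKM in the controls and 0.89 to 85.5 elsewhere. Camp, Ngp and Ltf lie on chromosome 9 between 109847379 and 111042767, a span of 1195.4 kb. The 16 tested genes between them had ratios of control 1 to the 16 libraries of 0.601 to 1.52, median 0.841. The neighbours were chosen by position and not by value.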

How the data were processed

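The data are 18 RNA libraries of mouse spleen, 3 in each of 6 groups. The authors deposited one table of FPKM values, a unit read here from the values. Per the submitters' processing notes, Bowtie 0.12.2 and mm10 were used. Which program counted the reads, and on which annotation, is not given in the sources used here. Depth is unknown. Columns were matched to samples by group code and number. The members and lists were chosen with earlier results of these data known. Differences were tested with limma 3.58.1 (R 4.3.3, trend and robust) on log2(FPKM + 1), in 1 fit of 18 libraries with 12 residual degrees of freedom, for the 12969 genes whose mean reached 1 FPKM in 1 group or more, with Benjamini-Hochberg adjustment over all of them and a threshold of 0.05. The code was tested on simulated data. The genes named were the 10 members, the 2 genes of each list with the smallest F test p, and the 5 genes most like each granule mean, with symbols of predicted genes (Gm, Rik) left out. Some of these are given only within their list, and 1 is not reported here. Others are said to be chosen after their values were seen. Alternatives were other filters (none, or 5 FPKM), pseudocounts of 0.1 and 5, median-ratio and quantile scaling, removal of haemoglobin rows, fits of the compared groups only, group weights, a replicate block and each library left out. The labels give no pairing. Libraries were paired by replicate number for HFD+AOS against HFD only, because residuals of same-numbered libraries correlated there, at 0.236, 0.268 and 0.191. Promoters are RefSeq's, GRCm38.p6.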

Additional observations from a re-analysis of the deposited data

How the results depend on the processing

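The count of granule genes called was 0 of 10 in all 11 tests and stayed 0 under every filter, pseudocount, scaling, weighting and block tried. With each library left out in turn it ranged from 0 to 10 for the F test and for HFD, AOS, HFD+AOS, HFD+AOS-FMT and HFD+control-FMT against control. The count of 10 came each time from leaving out control 3, which leaves 2 controls. For the other 5 tests it was 0 throughout. With the replicate block the count was 0 in every comparison, and the limma adjusted p for HFD against control was then 0.0658 to 0.109. Outside HFD+AOS against HFD, not every same-numbered pair of libraries correlated above 0.1. Without controls 1 and 2, 0 of 10 were called anywhere, and the lone control was assumed to vary like the other groups. Counts over all genes moved more: HFD against control called 357 genes, 1842 with the replicate block, 625 with a minimum of 5 FPKM, and 0 without a filter, with median-ratio scaling, without haemoglobin rows, with group weights or with the compared groups only. With single libraries left out it was 0 to 3818, and 0 for 11 of the 18, some from groups not compared (AOS 1 and 3, for example). The HFD+control-FMT count of 665 ranged from 5 (without HFD+control-FMT 1) to 3104, and the HFD+AOS count of 271 from 0 (without HFD+AOS 2) to 1327. The shares of all genes called are as unstable as these counts. Median-ratio scaling moved the median HFD difference over all genes from 0.10 to -0.00067, and that of the 10 genes from -1.94 to -2.05. The primary minus secondary difference moved by more than 1 SD of its group with a pseudocount of 0.1 in control 3 (-1.75) and HFD+AOS 3 (-1.72). Directions in comparisons without controls changed for 1 to 7 genes under some alternatives, scaling included. Depth is unknown, so the counting error of the lowest values, those of Ctsg and Fcnb, cannot be given.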

Other observations

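Some granule genes of eosinophils, another granulocyte, were also highest in controls 1 and 2. Epx (eosinophil peroxidase) read 2.46, 0.87 and 0.20 FPKM in controls 1, 2 and 3 and 0.08 to 0.72 elsewhere, and Prg2 (major basic protein) 19.8, 8.38 and 1.32 against 1.37 to 5.75. Both were chosen after their values were seen. The 2 genes named by rule did not follow: Ccr3, a receptor of mature eosinophils, read 6.98, 6.72 and 8.98 FPKM against 4.55 to 9.46, and Prg3 4.46, 2.20 and 0.95 against 1.43 to 5.14. Of 4 tested eosinophil genes, 0 were called by limma in any comparison with control, against 0% to 5.13% of all genes. At an unadjusted p under 0.05 the count was 1 in HFD+AOS-FMT and 0 in the other 4. Of all genes, 5.07% were lower at that p in HFD+AOS-FMT and 5.23% to 9.41% in the other 4.

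Mast cell and basophil genes had no common direction in control 1. The basophil proteases Prss34 and Mcpt8, chosen after their values were seen, were high: Prss34 read 6.35, 3.97 and 1.30 FPKM in the controls against 0.88 to 3.14 elsewhere, and Mcpt8 6.25, 3.51 and 1.31 against 1.2 to 3.67. Mcpt4, a mast cell protease, read 0.39, 3.71 and 2.14 FPKM in the controls and 0.99 to 5.72 elsewhere, and control 1 was the lowest of the 18 libraries. Cpa3, a mast cell carboxypeptidase, read 1.21, 1.97 and 1.46 FPKM against 0.53 to 3.64. Fcna, the ficolin gene of macrophages and the closest relative of Fcnb among the listed genes, read 44.0, 44.9 and 72.0 FPKM in the controls and 28.8 to 87.6 elsewhere. Control 3 was the highest of the controls, where Fcnb was lowest.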
